A study of Mus musculus with 6 samples.

Results

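The genes described here encode the subunits of the oxidative phosphorylation machinery, chosen as every probe analysed whose annotated gene symbol begins with Nduf, Uqcr, Cox4 to Cox8 or Atp5, or is Sdha to Sdhd, Cyc1 or Cycs. The rule used names alone and no measured value. It took 139 of 45281 probes, which read 89 genes, and 83 of these genes were measured above background and tested among 9633 genes in all. The 83 genes were 33 for complex I, 3 for complex II, 7 for complex III, 14 for complex IV, 16 for complex V, 1 for cytochrome c, 7 assembly factors caught by the same pattern (Ndufaf genes) and 2 others (Cox7a2l, which joins respiratory complexes into larger assemblies, and Ndufs5-ps, a pseudogene symbol). The remaining 6 genes (Sdha, Uqcrfs1, Cox7b2, Ndufaf6, Ndufs1 and Cox8c) were not above background on enough arrays, with highest intensities between 117 and 141, and nothing can be said of their levels.

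Expression was profiled in left ventricles of male c57/BL6 mice that were wild type (WT) or carried a global deletion of Kdm3a (KO), the gene for a histone demethylase that removes methyl groups from lysine 9 of histone H3. Mice aged 6 to 8 weeks had sham surgery or transverse aortic constriction (TAC), a banding of the aorta that loads the left ventricle with pressure, and hearts were taken 3 weeks later according to the labels, although the study's own text gives a later time. There were 6 arrays, with 1 for WT Sham, 2 for WT TAC, 1 for KO Sham and 2 for KO TAC. The study describes KO lines on a mixed and on a pure strain background, and the labels do not say more than c57/BL6. Whether each replicate was its own animal is also not stated, and the p-values cover the variation among these arrays only, which may in part be technical.

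Oxidative phosphorylation passes electrons from NADH through complex I, or from succinate through complex II, to coenzyme Q, then through complex III, cytochrome c and complex IV to oxygen. Complexes I, III and IV pump protons across the inner mitochondrial membrane, and complex V (ATP synthase) lets them flow back to make ATP. The adult heart is among the tissues richest in this machinery and draws most of its ATP from it. Most subunits are encoded in the nucleus, and several subunits of complex IV exist in a heart and skeletal muscle form and a form found in most tissues.

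Transcription factors NRF1, ERR, GABP (an ETS factor) and YY1 are known to act on many promoters of these genes. RefSeq promoter windows (build GRCm38.p6, 250 bases before and 50 after the start) were matched for 73 of the 89 genes, as 78 windows of 300 bases. The NRF1 core, the string in capitals in the Uqcrc1 window printed here, was searched on both strands with the others and was in 7 of 78 member windows (8.97%) and in 0.971% of all 32851 windows. The YY1 core AAGATGGC was in 11 (14.1%, all windows 2.75%), the ERR site TCAAGGTCA in 2 (2.56%, all windows 0.423%) and the ETS core CCGGAAGT in 4 (5.13%, all windows 3.89%). None of the windows printed here held more than 1 of these strings. Of the 7 genes with an NRF1 core, 3 were higher in KO TAC than in WT TAC, of the 11 with a YY1 core 7 were, of the 4 with an ETS core 2 were and of the 2 with an ERR site 0 were (all measured members 45.8%). A match is a string of letters and not evidence of binding. Windows are shown for 3 genes to which the results return, with the motif in capitals. Uqcrc1 (chr9:108936398-108936697, plus strand) holds an NRF1 core. Ndufs4 (chr13:114388045-114388344, minus strand) holds a YY1 core. Ndufb4 (chr16:37654319-37654618, minus strand), the member with the largest difference that passed a test, holds none of the 4 strings.
Uqcrc1: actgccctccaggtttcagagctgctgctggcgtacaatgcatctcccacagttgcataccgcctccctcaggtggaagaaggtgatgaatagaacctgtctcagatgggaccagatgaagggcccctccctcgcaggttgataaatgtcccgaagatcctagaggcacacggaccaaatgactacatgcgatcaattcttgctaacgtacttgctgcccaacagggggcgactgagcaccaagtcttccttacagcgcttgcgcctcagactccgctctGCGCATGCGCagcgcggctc
Ndufs4: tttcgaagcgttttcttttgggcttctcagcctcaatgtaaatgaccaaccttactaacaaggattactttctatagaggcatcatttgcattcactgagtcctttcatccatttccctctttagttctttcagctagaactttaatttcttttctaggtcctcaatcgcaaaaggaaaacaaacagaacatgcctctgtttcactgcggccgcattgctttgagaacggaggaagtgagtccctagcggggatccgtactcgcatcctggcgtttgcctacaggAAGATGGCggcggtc
Ndufb4: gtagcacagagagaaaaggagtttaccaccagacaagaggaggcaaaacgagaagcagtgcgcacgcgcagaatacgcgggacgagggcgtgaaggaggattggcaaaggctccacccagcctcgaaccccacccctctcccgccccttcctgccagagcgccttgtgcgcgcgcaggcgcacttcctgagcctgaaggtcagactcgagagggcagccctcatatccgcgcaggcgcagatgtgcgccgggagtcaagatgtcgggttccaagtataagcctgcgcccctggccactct

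Both WT TAC arrays were unlike the other 4. Over all genes tested, the 2 WT TAC arrays correlated with each other at 0.993 but with the other 4 at 0.917 to 0.931, while WT Sham, KO Sham and KO TAC correlated among themselves at 0.984 to 0.995. Each array had 33.0% to 35.4% of probes above background. Kdm3a probe ILMN_3118169 read 292 in WT Sham and 296 and 264 in WT TAC against 129 in KO Sham and 137 and 143 in KO TAC, below background on each KO array. Of its other 3 probes, 2 were above background on all 6 arrays and lower in KO (466 to 502 in WT and 361 to 394 in KO for ILMN_2707895). The extent of the deletion within Kdm3a is not given in the labels. Of the cardiomyocyte markers, 9 of 10 were measured, and 2, Myh6 and Tnni3, fell in WT TAC against WT Sham (limma, all genes 15.7%). The median of the 9 was -0.45 on the log2 scale, but Mybpc3 stood at 0.54 (adjusted p 0.073, limma), Actc1 at 0.07 and Myl3 at 0.03. In KO TAC against WT TAC, 3 were higher and 1 lower. The summed background-corrected level of the 9 was 183200 and 172700 in WT TAC and 190200 to 195600 on the other arrays. Within it, Myh6 read 29495 in WT Sham and 19904 and 16428 in WT TAC. Fibroblast markers mostly rose. All 9 were measured, 7 rose in WT TAC, and their sum was 33010 and 34040 in WT TAC against 18780 to 21550 elsewhere. The 4 neutrophil markers rose in WT TAC (sum 6651 and 11330, elsewhere 231 to 557). Of 6 measured macrophage markers, 2 rose, Cd14 and Fcer1g (sum of the 6 5044 and 5414, elsewhere 1454 to 2107). Most of the rise in that sum was Cd14 (194 in WT Sham, 2835 and 2862 in WT TAC). Cx3cr1, another of the 6, did not rise (log2 -0.36, adjusted p 0.207, limma). Of 3 measured erythroid markers 2 rose (Alas2 and Slc4a1), of 6 endothelial markers Cldn5 rose and Egfl7 fell, and Ckm, a muscle creatine kinase also made in heart, fell (log2 -1.38, adjusted p 0.006, limma). No adipocyte marker was measured above background. In ventricle RNA, fewer cells of a type and less RNA per cell cannot be told apart, and the part of these marker shifts in the results below was not tested.

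The first question was whether loss of Kdm3a changed the respiratory chain in the pressure-loaded ventricle. Of 83 members, 38 (45.8%) were higher in KO TAC than in WT TAC, 45 did not pass the test and 0 were lower (limma, adjusted p under 0.05 over all 9633 genes, with none lower before adjustment either, by limma or by the methods' t-test), where 21.5% of all genes were higher and 19.5% lower. The 38 differences ran from 1.34-fold to 2.31-fold. Regardless of the test, 80 of 83 members had a positive difference, with a median of 0.42 on the log2 scale against 0.04 for all genes. Both KO TAC arrays lay above both WT TAC arrays for 70 members (84.3%, all genes 39.2%) and below for 0 (all genes 34.2%). The count depended on the WT TAC arrays, and without WT TAC replicate 2 the share of members called was close to that of all genes. Without WT TAC replicate 2 it was 9 members (1030 of all genes), without WT TAC replicate 1 it was 18 (1317 of all genes), and without KO TAC replicate 2 it was 23. Of the 17 members whose difference is given below with its error and passed, 7 (Ndufb4, Ndufs4, Ndufb2, Cyc1, Cox4i2, Atp5e and Ndufaf8) also passed without WT TAC replicate 2.

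The second question was what pressure load did in each genotype. In WT, 18 of 83 members (21.7%) fell with TAC and 0 rose (limma, also 0 at an unadjusted p under 0.05), where 15.7% of all genes fell and 15.3% rose. The median difference was -0.38 (all genes -0.07), 76 members had a negative difference, and both WT TAC arrays lay below WT Sham for 75 members (90.4%, all genes 48.8%) and above it for 4 (all genes 39.4%). This count also depended on the WT TAC arrays, and was much smaller without either of them. It depended on the fit as well, with 35 without background correction and 36 with an intensity trend. Counts over all genes at these settings are not given here, so these member counts cannot be set against a share of all genes. Of the falls named below, that of Ndufb4 alone passed without WT TAC replicate 2. The 18 falls lay between 1.47-fold and 2.11-fold. In KO, no member passed the test for TAC against Sham, and neither did any of the 9633 genes (0% in each direction, limma, where before adjustment 1 member rose and 1 fell at p under 0.05). The KO median was -0.01, and the 2 KO TAC arrays were both below KO Sham for 23 members (27.7%, all genes 31.4%) and both above it for 19 (22.9%, all genes 28.2%). The sham arrays differed in no member by the test (0.0415% of all genes higher and 0.0208% lower in KO Sham, limma), and Cox7b was the 1 member with an unadjusted p under 0.05. The comparisons KO TAC vs WT TAC and WT TAC vs WT Sham share the WT TAC arrays, so a low value there enters both.

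**Figure D1:**
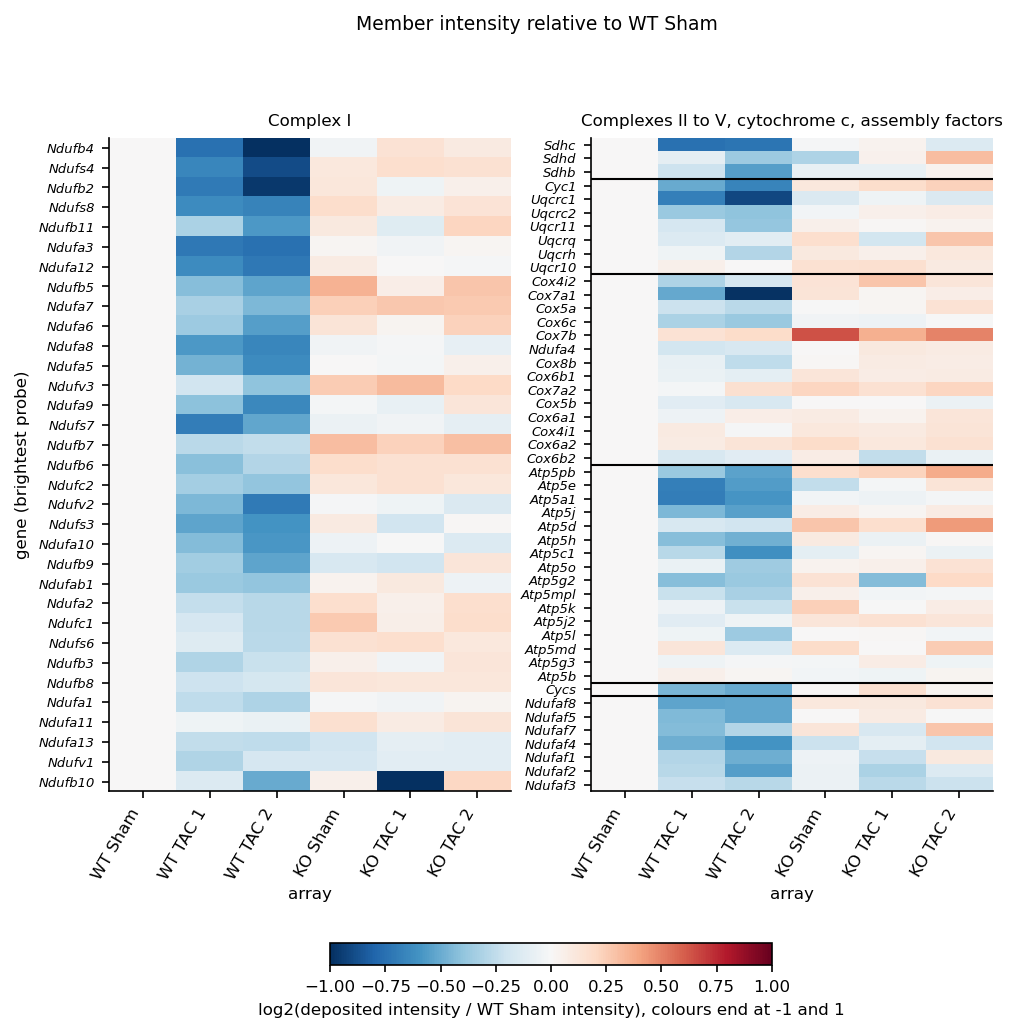
Intensity of each measured member on each of the 6 arrays, as log2 of the deposited intensity over that in WT Sham (blue lower, red higher, colours end at -1 and 1), with complex I at left and the other complexes, cytochrome c and assembly factors at right in blocks divided by black lines. The 2 WT TAC columns are blue for most genes, with medians of -0.32 and -0.39 over the members, and the KO Sham and KO TAC columns lie near 0 (medians 0.08, 0.02 and 0.10).

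Per array, the median member stood at -0.32 in WT TAC 1 and -0.39 in WT TAC 2 relative to WT Sham on the log2 scale, against -0.07 and -0.06 for all genes. The same median was 0.08 in KO Sham, 0.02 in KO TAC 1 and 0.10 in KO TAC 2. Both WT TAC arrays were thus below the other 4 arrays, which lay close together. Complex I departed most among the 5 complexes (-0.37 and -0.53 in WT TAC) apart from the 3 genes of complex II in replicate 2 (-0.21 and -0.55), and complex IV least (-0.10 and -0.16).

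A direct test asked whether the TAC effect differed between genotypes (the TAC effect in KO minus that in WT). It passed for 2 members, Ndufb4 and Atp5e. The difference was positive for 71 of 83 members with a median of 0.34 (all genes 5201 of 9633, median 0.06). All genes had 5.63% higher and 8.39% lower by this test. The 2.41% of members was thus below the background. At an unadjusted p under 0.05 (limma) there were 17 of 83 members, and 0 in the opposite direction. Of all 9633 genes, 1550 were higher and 1523 lower at that level. The count of members higher by the adjusted test ran from 0 without the filter on dim probes to 14 with an intensity trend in the fit. The share of all genes at these settings is not given here.

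Complex I, the entry point for electrons from NADH, gave 21 of the 38 members higher in KO TAC and 9 of the 18 that fell in WT TAC. In KO TAC against WT TAC 21 of its 33 measured genes were higher (63.6%, all genes 21.5%) and 0 lower, with a median of 0.51, and in WT TAC against WT Sham 9 fell (27.3%, all genes 15.7%), with a median of -0.45. Among the subunits that carry the flavin and iron-sulphur clusters, 4 of 5 measured (Ndufv2, Ndufs3, Ndufs7 and Ndufs8) were higher in KO TAC and 2 (Ndufs7 and Ndufs8) fell in WT TAC. Of the 28 accessory subunits measured, which surround that core, 17 were higher in KO TAC and 7 fell in WT TAC.

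Ndufb4, an accessory subunit of the membrane arm, had the largest difference among members that passed. Its intensity was 758 in WT Sham, 451 and 380 in WT TAC, 741 in KO Sham, and 836 and 806 in KO TAC. The 2 WT TAC arrays were low and the other 4 lay within a narrow band. The KO TAC to WT TAC difference was 2.31-fold (log2 1.21 ± 0.16 SE, adjusted p 0.00181, limma), and the fall with TAC in WT was 2.11-fold (log2 -1.08 ± 0.20, adjusted p 0.00856). Ndufs4, an accessory subunit whose loss in mice causes a fatal brain disease with complex I deficiency, read 14711 in WT Sham, 9350 and 7903 in WT TAC, 15792 in KO Sham, and 16488 and 16354 in KO TAC. It too was low in WT TAC alone. KO TAC was 1.92-fold above WT TAC (log2 0.94 ± 0.15, adjusted p 0.0035), and WT TAC was 1.72-fold below WT Sham (log2 -0.78 ± 0.18, adjusted p 0.0196). Ndufb2, another membrane arm subunit, read 2471 in WT Sham, 1514 and 1267 in WT TAC, 2678 in KO Sham, and 2393 and 2555 in KO TAC. Its log2 difference was 0.89 ± 0.15 for KO TAC minus WT TAC (adjusted p 0.00502) and -0.89 ± 0.19 for WT TAC minus WT Sham (adjusted p 0.0148). No array of KO TAC overlapped WT TAC for any of these genes, which were named for their large differences. Both KO TAC arrays lay above both WT TAC arrays for 39.2% of all genes.

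Complex II, which is also the succinate dehydrogenase of the citric acid cycle, was read by 3 genes. Sdhc, one of its pair of membrane anchors, read 15677 in WT Sham, 9324 and 9459 in WT TAC, 15556 in KO Sham, and 16100 and 14274 in KO TAC. Its level in KO TAC was 1.62-fold that in WT TAC (log2 0.70 ± 0.14, adjusted p 0.00867, limma) and fell with TAC in WT (log2 -0.75 ± 0.17, adjusted p 0.0192). The WT TAC arrays were again apart from the rest. Sdhb, the iron-sulphur subunit, and Sdhd, the other anchor, had differences of 0.36 (95% interval -0.03 to 0.76, adjusted p 0.124, limma) and 0.42 (0.01 to 0.84, adjusted p 0.0934) between KO TAC and WT TAC, which did not pass. The value for Sdhb is that of its brightest probe. Over its 3 kept probes this difference ran from 0.36 to 1.43, with 0.44 on the next brightest.

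Complex III, which hands electrons from coenzyme Q to cytochrome c, had 3 of 7 genes higher in KO TAC (42.9%, all genes 21.5%). Of these 7, 2 fell in WT TAC (28.6%, all genes 15.7%). Cyc1, the cytochrome c1 subunit, read 13155 in WT Sham, 9268 and 8317 in WT TAC, 14118 in KO Sham, and 14820 and 15398 in KO TAC. It was 1.73-fold higher in KO TAC (log2 0.79 ± 0.14, adjusted p 0.00529, limma) and fell in WT TAC (log2 -0.59 ± 0.17, adjusted p 0.0404). Uqcrc1, a structural subunit facing the matrix, read 21870 in WT Sham, 13651 and 11666 in WT TAC, 19766 in KO Sham, and 21184 and 19819 in KO TAC. Its differences were 0.70 ± 0.15 against WT TAC (adjusted p 0.0103) and -0.80 ± 0.18 with TAC in WT (adjusted p 0.0185). Uqcrc2, its partner, was higher in KO TAC by 0.45 ± 0.13 (adjusted p 0.0328) but did not pass for TAC in WT (-0.39, adjusted p 0.112). Cycs, the somatic cytochrome c that shuttles between complexes III and IV, was higher in KO TAC by 0.58 ± 0.14 (adjusted p 0.0161), with WT TAC at 12395 and 11959 and the other 4 arrays between 16973 and 18951.

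**Figure D2:**
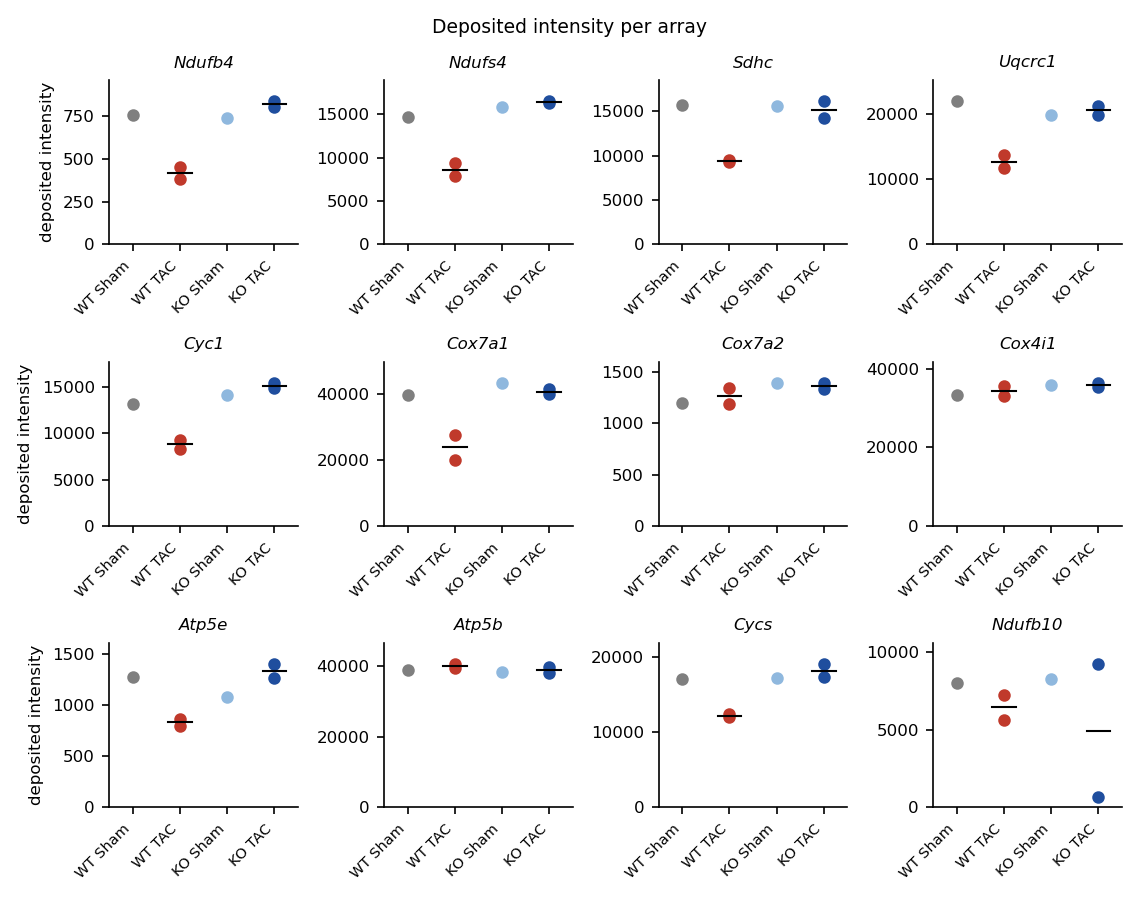
Deposited intensity on each array for 12 members, by group (grey WT Sham, red WT TAC, light blue KO Sham, dark blue KO TAC, points are arrays and lines are means of 2), on axes that start at 0. The WT TAC points lie below all others for Ndufb4, Ndufs4, Sdhc, Uqcrc1, Cyc1, Cox7a1, Atp5e and Cycs, while Cox4i1, Cox7a2 and Atp5b are level, and Ndufb10 has 1 low point in KO TAC.

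Complex IV, cytochrome c oxidase, had 2 of its 14 measured genes higher in KO TAC (14.3%, all genes 21.5%) and 1 that fell in WT TAC (7.14%, all genes 15.7%), shares below those of all genes. Its medians were 0.20 and -0.15, and 8 of its 14 genes had a mean intensity over 20000, where 13.8% of all genes were higher. The 1 gene called in both was Cox7a1, the heart and muscle isoform of subunit 7a. It read 39552 in WT Sham, 27682 and 19983 in WT TAC, 43297 in KO Sham, and 39986 and 41371 in KO TAC. The WT TAC arrays were the lowest and differed between themselves, and both KO TAC arrays lay above them (all genes 39.2%). Its difference was 1.73-fold between KO TAC and WT TAC (log2 0.79 ± 0.18, adjusted p 0.0154, limma) and 1.68-fold for TAC in WT (log2 -0.75 ± 0.23, adjusted p 0.0458). Cox7a2, the isoform found in most tissues, read 1198 in WT Sham, 1185 and 1338 in WT TAC, 1391 in KO Sham, and 1331 and 1390 in KO TAC, and its difference of 0.12 (95% interval -0.22 to 0.46, adjusted p 0.528) did not pass. Within each array, the ratio of Cox7a1 to Cox7a2 relative to WT Sham was -0.50 and -1.16 on the log2 scale in WT TAC, -0.10 in KO Sham, and -0.15 and -0.17 in KO TAC. Cox7a2l had a difference of 0.30 (adjusted p 0.166).

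Of the other isoforms of complex IV, Cox4i2 alone passed a test. Cox4i1, the main form of the largest nuclear subunit, read between 33003 and 36376 on all 6 arrays, with a KO TAC to WT TAC difference of 0.07 (95% interval -0.25 to 0.39). Cox4i2, a form known from lung and responsive to low oxygen, was dim but above background on all arrays (208 in WT Sham, 168 and 185 in WT TAC, 229 in KO Sham, and 253 and 226 in KO TAC) and was higher in KO TAC by 0.89 ± 0.18 (adjusted p 0.00836, limma), while its change with TAC in WT did not pass (-0.53, adjusted p 0.111). Cox6a2, the heart and muscle form of subunit 6a, had a difference of 0.02 (95% interval -0.29 to 0.34), and Cox6a1, its counterpart elsewhere, 0.08 (-0.25 to 0.41). Cox6b1 stood at 0.16. Cox6b2, a testis form and the dimmest member, was above background on the 2 sham arrays and on no TAC array, so that its difference between the TAC groups (-0.09) gives no direction. Cox8b, the mouse heart form of subunit 8, stood at 0.24 (adjusted p 0.204), and Ndufa4, named for complex I but now placed in complex IV, at 0.26 (adjusted p 0.156). Leaving out single arrays turned the sign for Cox6a2. Cox8a, Ndufa4l2 and Atp5g1 were not analysed here.

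Complex V, the ATP synthase, had 6 of 16 genes higher in KO TAC (37.5%, all genes 21.5%) and 2 that fell in WT TAC (12.5%, all genes 15.7%), with medians of 0.30 and -0.24. Of the 5 subunits of its catalytic F1 head, Atp5a1, Atp5d and Atp5e were higher in KO TAC. Atp5e, the epsilon subunit at the foot of the rotor, read 1281 in WT Sham, 796 and 868 in WT TAC, 1077 in KO Sham, and 1265 and 1399 in KO TAC. It was higher by 0.75 ± 0.14 in KO TAC (adjusted p 0.00716, limma) and fell by 0.69 ± 0.18 on the log2 scale in WT TAC (adjusted p 0.0266). Atp5a1, the alpha subunit, read 6829 in WT Sham, 4228 and 4530 in WT TAC, 6697 in KO Sham, and 6583 and 6753 in KO TAC, with differences of 0.62 ± 0.13 (adjusted p 0.0117) and -0.65 ± 0.16 (adjusted p 0.0262). On this probe, its brightest, the WT TAC arrays were again the low ones. The other kept probe of Atp5a1, dim at a mean of 166, gave 0.54 for KO TAC minus WT TAC. For WT TAC minus WT Sham it gave 0.38, the opposite direction. Atp5b, the catalytic beta subunit, is the partner of Atp5a1 and the brightest member. It read between 37893 and 40446 on all arrays and had a difference of -0.04 (95% interval -0.36 to 0.27, adjusted p 0.821, limma).

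The peripheral stalk holds the head still against the rotor. Of its 4 measured subunits, 3 (Atp5pb, Atp5h and Atp5j) were higher in KO TAC (all genes 21.5%) and 0 fell in WT TAC (all genes 15.7%). Atp5pb, the b subunit, was higher by 0.76 ± 0.14 (adjusted p 0.00731, limma) on its brightest probe. Its 4 kept probes disagreed. In the fit over all probes, 3 gave 0.76 to 0.85, while ILMN_2584887 gave -1.34 ± 0.18 (adjusted p 0.00186), with intensities of 213 in WT Sham, 336 and 301 in WT TAC, 203 in KO Sham, and 178 and 199 in KO TAC. That probe was the 1 member probe of 120 that was lower in KO TAC and the 1 that rose in WT TAC (18.1% and 13.8% of all kept probes). The proton-carrying c ring is encoded by several genes for 1 protein. Atp5g3 had a difference of 0.04 (95% interval -0.28 to 0.36) and Atp5g2 of 0.29 (-0.24 to 0.82), and each turned sign without 1 KO TAC array. The other 5 measured membrane subunits had differences of 0.17 to 0.25, and 0 passed.

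**Figure D3:**
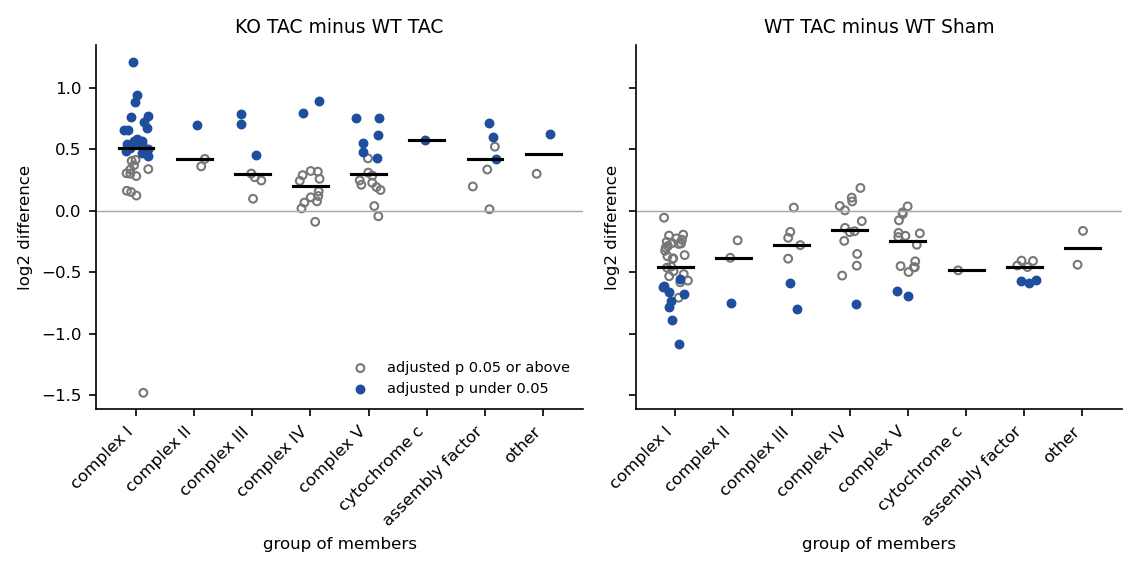
Log2 difference of each measured member (points, filled where the adjusted p was under 0.05) by complex, with black bars at the median, for KO TAC minus WT TAC at left and WT TAC minus WT Sham at right. The complex I bar is at 0.51 and -0.45 and the complex IV bar at 0.20 and -0.15, and no filled point lies on the other side of 0.

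The assembly factors, which build complex I and do not stay in it, showed the same direction. Of 7 measured, 3 were higher in KO TAC (42.9%, all genes 21.5%) and the same 3 fell in WT TAC (42.9%, all genes 15.7%). The 2 comparisons share the WT TAC arrays. Ndufaf8 and Ndufaf5, which in human cells work together on a core subunit, were higher by 0.72 ± 0.13 (adjusted p 0.00621, limma) and 0.60 ± 0.14 (adjusted p 0.0137), and fell by 0.59 and 0.56 on the log2 scale in WT TAC. Ndufaf4 was higher by 0.42 ± 0.14 (adjusted p 0.0487) and fell by 0.57 on the log2 scale (adjusted p 0.0435). Ndufs5-ps was higher by 0.62 ± 0.13 (adjusted p 0.0114), and since it is a pseudogene symbol its probe may also read Ndufs5.

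Ndufb10, an accessory subunit of complex I, showed 1 array at odds with the rest. Its brightest probe read 8006 in WT Sham, 7280 and 5660 in WT TAC, 8303 in KO Sham, and 667 and 9224 in KO TAC. Its second probe read 2924, then 2231 and 1762, then 2725, and 5883 and 2665 in the same order. KO TAC replicate 1 was therefore far below the other arrays on 1 probe and far above them on the other. The fitted difference of -1.48 had a 95% interval of -4.15 to 1.19, and neither probe passed (adjusted p 0.328 and 0.0597 over all probes, limma). It was chosen for description after its values were seen.

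Fewer of the brightest members passed the test. Members made up 28 of the 80 genes with a mean intensity over 20000 (35.0%), and the highest deposited value was 43297. Of those 28 members 5 were higher in KO TAC (17.9%, all genes of that brightness 13.8%), while of the 32 members between 5000 and 20000 it was 23 (71.9%, all genes 28.2%). It was 6 of 13 from 1000 to 5000 (46.2%, all genes 22.3%) and 4 of 10 under 1000 (40.0%, all genes 21.0%). The median differences were 0.26 over 20000, 0.53 from 5000 to 20000, 0.42 from 1000 to 5000 and 0.40 under 1000. Within complex I, 2 of 9 over 20000 and 19 of 24 at or under it were higher, with medians of 0.34 and 0.55. Within complex IV, 1 of 8 and 1 of 6 were, with medians of 0.20 and 0.21, a count of 1 on each side of that limit.

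Where a gene had several probes, the dimmer one often gave the larger difference. In 11 genes the brightest kept probe had a mean over 20000 and the next over 1000, and the next probe gave a larger KO TAC to WT TAC difference in 8, with medians of 0.34 for the brightest and 0.49 for the next. For WT TAC against WT Sham the medians were -0.21 and -0.45. Ndufs6, an accessory subunit of complex I, gave 0.34 ± 0.14 on a probe of mean 29215 (adjusted p 0.107 over all probes, limma) and 0.98 ± 0.15 on a probe of mean 3119 (adjusted p 0.00337). Cox5b, a zinc-binding subunit of complex IV, gave 0.11 ± 0.14 on a probe of mean 35060 (adjusted p 0.559) and 0.53 ± 0.14 on a probe of mean 10640 (adjusted p 0.0232). Atp5j and Atp5o went the other way, with 0.55 and 0.31 on the brightest probe and 0.12 and 0.10 on the next. Over all kept probes 57 of 120 member probes were higher in KO TAC (20.5% of all kept probes) and 28 fell in WT TAC (13.8% of all kept probes). Ndufs6, Cox5b, Atp5j and Atp5o were chosen here after their values were seen.

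**Figure D4:**
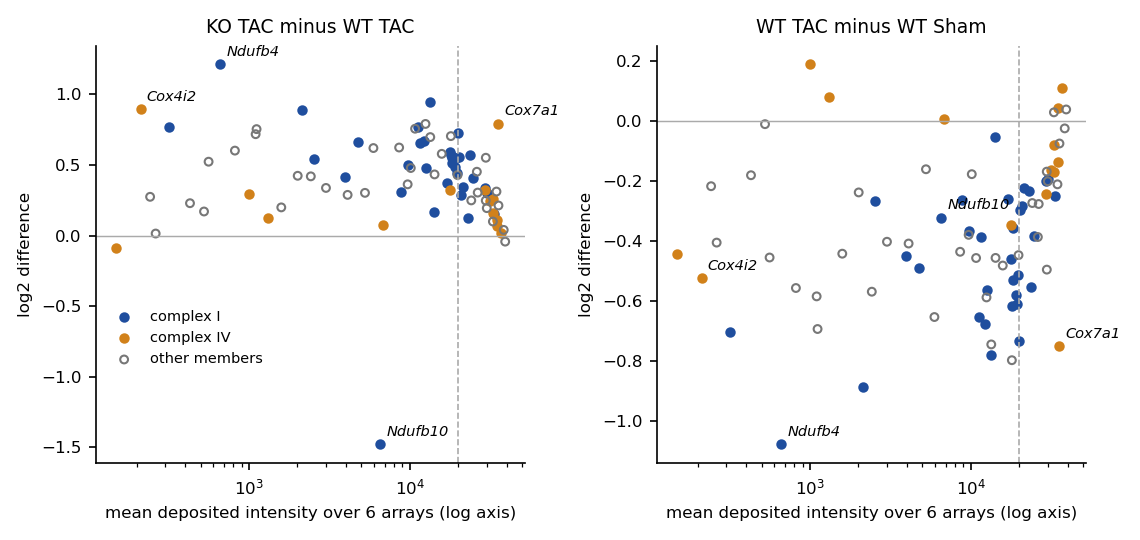
Log2 difference of each member against its mean deposited intensity over the 6 arrays (log axis, dashed line at 20000), with complex I in blue, complex IV in orange and other members open. Differences narrow towards 0 for most members beyond the line, with Cox7a1 (0.79 and -0.75) as an exception, and Ndufb10 lies alone at -1.48 in the left panel.

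**Figure D5:**
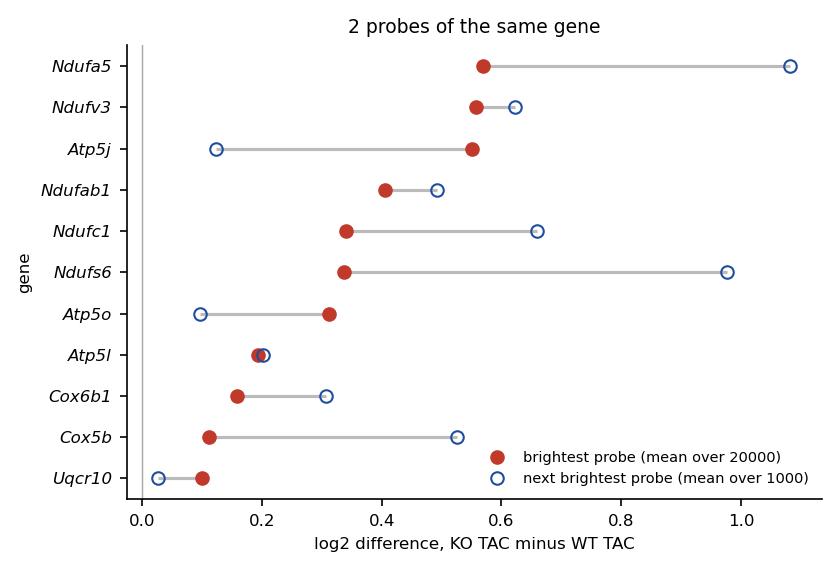
KO TAC minus WT TAC log2 difference from 2 probes of the same gene, for the 11 members whose brightest kept probe (filled) has a mean over 20000 and whose next probe (open) has a mean over 1000. The open point lies to the right of the filled one in 8 of 11 genes.

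Genes of the pathway outside the naming rule were read by lists. Coenzyme Q is the lipid that carries electrons into complex III. Of the Coq genes listed for it, 9 of 9 measured were higher in KO TAC (median 0.65, all genes 21.5% higher). Of these, 5 fell in WT TAC (all genes 15.7%). Coq9 is a lipid-binding protein needed for coenzyme Q synthesis. It read 8222 in WT Sham, 4097 and 3478 in WT TAC, 8286 in KO Sham, and 7788 and 8167 in KO TAC. That was a 2.14-fold difference between KO TAC and WT TAC (log2 1.10 ± 0.15, adjusted p 0.00195, limma). Of the complex III assembly factors 3 of 5 measured (Uqcc1, Ttc19 and Bcs1l) were higher in KO TAC and the same 3 fell in WT TAC. Of the complex IV assembly factors 7 of 16 measured were higher and 1, Cox19, was lower (-0.62 ± 0.14, adjusted p 0.0132), and 4 fell in WT TAC. Coa7 had the largest difference there (1.73 ± 0.23, adjusted p 0.00185). The factors of complex I had 2 of 6, those of complex II 1 of 4 and those of complex V with its inhibitor 1 of 3 higher in KO TAC, small counts near the 21.5% of all genes. The mitochondrial genome encodes the remaining subunits. Of 7 of these that were measured 1, ND4L, was higher in KO TAC (0.66 ± 0.19, adjusted p 0.0295) and 0 fell in WT TAC (limma), with medians of 0.14 and -0.14. No gene of these lists passed for TAC in KO (limma), as none did among all genes.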

How the data were processed

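Left ventricular RNA of 6 mouse samples was hybridised to Illumina bead arrays. The authors summarised scans in GenomeStudio 2011.1, and the deposited intensity values are linear and already quantile normalized (sorted arrays differed by at most 0.838%), with the background step not given in the sources used here. Another table had 12 columns, 6 of them signals, tied to no sample, and was not used.

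Background was corrected with limma's nec (normal-exponential, robust fit, offset 16), which took 1543 olfactory, vomeronasal and taste receptor probes for its controls, and log2 and quantile normalization followed. Probes above the 99th percentile of receptor probes (149.0 to 155.1) on at least 2 arrays were kept (16688), and the brightest kept probe stood for each gene. Of the probes, 34885 had 1 annotated gene, 18 several and 10378 none, and 34807 were found in GRCm38.p6. limma 3.58.1 (R 4.3.3) was fitted with 1 coefficient per group on 2 residual degrees of freedom (4.63 prior, prior SD 0.157). The spread came from the TAC pairs, and each sham array was assumed to vary like them. P-values of 5 comparisons were adjusted by Benjamini-Hochberg over all genes and read at 0.05. The values after ± are standard errors. Exact permutation of 2 against 2 arrays cannot go below p = 0.333. The fit was tested on simulated data. The number of arrays limits the precision.

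Members, lists and rules were chosen with earlier results of these data known. For each complex up to 3 called members with the largest rise and fall were named, with members called against their group, members called in the other comparisons, isoform pairs, genes with disagreeing probes, and the brightest and dimmest member. Alternatives covered background correction, offset, normalization, filter, probe choice, an intensity trend, the methods' t-test, a replicate block, the TAC arrays alone and leaving out each TAC array. Selecting the brightest probe under 20000 and structural subunits alone were added after the data were seen.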

Additional observations from a re-analysis of the deposited data

Results flagged for a closer look

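The test of the difference between the TAC effects in KO and WT flagged 2 members. For Ndufb4 the TAC effect was 1.25 higher on the log2 scale in KO than in WT (SE 0.28, adjusted p 0.0313, limma), from 0.17 in KO (adjusted p 1) and -1.08 in WT (adjusted p 0.00856). For Atp5e it was 1.03 higher (SE 0.25, adjusted p 0.0406), from 0.33 in KO (adjusted p 1) and -0.69 in WT (adjusted p 0.0266). Each effect rests on 1 sham array, and without the filter on dim probes the adjusted p was 0.0746 for Ndufb4 and 0.0739 for Atp5e.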

How the results depend on the processing

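The replicate numbers of WT TAC and KO TAC are not said to pair the arrays, and same-numbered arrays did not deviate together (correlation of deviations 0.0473 over all genes and -0.178 over members). With the replicate block 37 members were higher in KO TAC (38 without it, 36 shared) and 17 fell in WT TAC (18 without it, 16 shared), and Ndufaf4 (adjusted p 0.0544) and Ndufaf5 (0.0505) lost 1 call each. Leaving out 1 TAC array gave 9 to 31 members higher in KO TAC than in WT TAC, 0 to 1 lower, 1 to 19 that fell in WT TAC, 0 to 1 that fell in KO TAC, and 0 to 2 higher and 0 to 1 lower in the difference of TAC effects. The median differences then ran from 0.3126 to 0.465 and from -0.386 to -0.3221. The methods' t-test gave 42 higher and 0 lower unadjusted and 0 adjusted (1 gene of all). Falls in WT TAC numbered 35 without background correction, 36 with an intensity trend and 28 over all kept probes. Members higher in the difference of TAC effects numbered 12 without background correction, 5 with an offset of 50, 0 without the filter and 14 with the trend. Counts over all genes without background correction, with that offset, without the filter and with the trend are not given here. The member counts at these settings thus cannot be set against a share of all genes. Over all kept probes 1 was lower in KO TAC and 1 rose in WT TAC. The median for KO TAC against WT TAC was 0.3626 without the filter, which adds the 6 dim genes, and 0.5122 with the brightest probe under 20000, which also gave -0.4574 for WT TAC against WT Sham and 0.4946 for the difference of effects. The KO TAC to WT TAC difference turned sign for Cox6a2 (-0.0023 without WT TAC replicate 1, -5e-04 without KO TAC replicate 2, range up to 0.0441), Cox6b2 (0.0064 without WT TAC replicate 2, range -0.405 to 0.2282), Atp5g3 (range -0.0171 to 0.0968) and Atp5g2 (range -0.0381 to 0.614). Of 31 calls of named genes, 23 were lost without WT TAC replicate 2, 15 without WT TAC replicate 1, 3 without each KO TAC array, 7 without the filter and 3 with the mean of kept probes. The causes were not tested. For the 6 dim genes and Cox6b2, signal near background limits what can be read.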
